A study of Homo sapiens with 2 samples.

Results

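The clusters described here lie in 286 windows of 100000 bases, each holding 5 or more ADAR1 clusters with at least 1 on each strand of the genome. ADAR1 edits double-stranded RNA by deaminating adenosines to inosines, and the clusters are places where RNA was crosslinked to it in U87MG, an established cell line from a human glioblastoma (astrocytoma). Each chromosome was cut into windows from position 0 of hg19 and each cluster was assigned by its midpoint. Of 703 windows with 5 or more clusters, 286 held both strands, 40.7% (Wilson 95% interval 37.1 to 44.4%), and 417 held a single strand. The 286 both-strand windows held 1661 of the 23782 clusters in the list, or 6.98%. The windows were chosen by the position and strand of their clusters, so their numbers and strand counts are a description and carry no test.

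The study made CLIP-seq libraries (crosslinking, immunoprecipitation and sequencing) from untreated U87MG cells with the antibody labels AB1 and AB2, 1 library each, after ultraviolet irradiation at 254 nm. No knockdown, input or second cell line is among the samples used here. The labels give AB1 and AB2 an identical antibody catalogue number, although the series speaks of different antibodies. Whether the antibodies differ cannot be told here. The deposited list joins the series into 1 set of clusters with a class, Alu or non-Alu, and no tag count. Sequencing depth is therefore unknown, AB1 and AB2 cannot be compared, and no value below has a replicate. Intervals cover counting error only, and clusters of 1 transcript are not independent, so differences between sets of clusters are given without a test.

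RNA that ADAR1 edits is double-stranded, and in human transcripts much of it forms within a single RNA where Alu repeats of opposite orientation pair with each other. Double-stranded RNA can also form between RNAs copied from both strands of the same place, as in sense and antisense transcripts. CLIP keeps track of the strand an RNA was copied from, so a change of strand between neighbouring clusters can mark a change of transcript. It does so only where reads were placed correctly, which was not tested. Genes that lie side by side on opposite strands give blocks of clusters, with the strands pointing toward each other where a plus block lies left of a minus block and away from each other where it lies right. A gene that lies inside an intron of a gene on the other strand gives an enclosed block. The strand is that of the RNA and says nothing of the orientation of the Alu repeat within it. No hg19 gene annotation or genome was used here, so windows are named by hg19 position, transcripts are not assigned and no sequence is shown.

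The strands were mostly split rather than interleaved. Walking along each window from cluster to cluster, 178 of the 286 windows, 62.2% (56.5 to 67.7%), changed strand exactly 1 time, the lowest number that a window with both strands allows. In 85 of these 178 the strand with fewer clusters had a lone cluster at the end of the row, and in 93 each strand formed a block of 2 or more. A lone cluster allows 2 switches at most, which favours a low number. A further 76 windows changed strand 2 times, 17 changed 3 times, 11 changed 4 times, 3 changed 5 times and 1 changed 6 times. Of 1375 consecutive pairs of clusters in these windows, 446 were on opposite strands, 32.4% (30.0 to 35.0%), and 929 were on the same strand. The rule gives each of the 286 windows at least 1 switch and leaves out windows of a single strand. That raises this share and the shares by distance and by class given below.

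**Figure D1:**
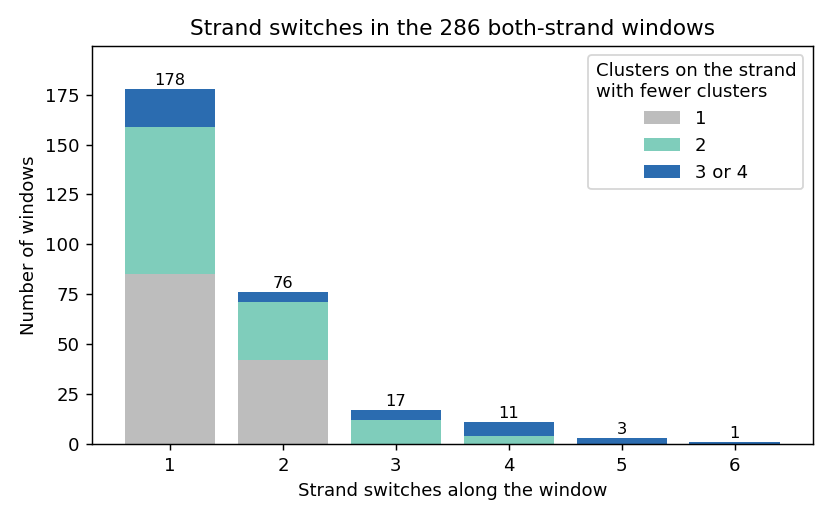
The bars count the 286 both-strand windows by the number of strand switches met when their clusters are read in order of midpoint. Colours give the number of clusters on the strand with fewer clusters. The bar at 1 switch holds 178 windows and the bar at 6 switches holds 1.

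Windows were sorted into 3 arrangements by the strand with fewer clusters, called the minority strand. In 127 windows, 44.4% (38.8 to 50.2%), the minority strand had a lone cluster. In 93 windows, 32.5% (27.4 to 38.1%), it had 2 or more clusters and the strands formed 2 blocks with a single switch between them. In the other 66 windows, 23.1% (18.6 to 28.3%), it had 2 or more clusters and the strands were mixed, with 2 or more switches. The minority strand had 1 cluster in 127 windows, 2 in 119, 3 in 38 and 4 in 2, and in 24 windows the strands had equal numbers. Most windows were small: 143 held 5 clusters, 87 held 6, 39 held 7 and 17 held 8 or more.

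The share of windows with both strands changed with the number of clusters in the window. Each further cluster by itself gives another chance to meet the second strand. It was 12.4% (11.3 to 13.7%) of the 3061 windows with 2 clusters, 29.4% of the 858 with 4 and 39.3% of the 364 with 5. It reached 51.3% (40.3 to 62.2%) of the 76 windows with 7 clusters. Among the 69 windows with 8 or more clusters it was 24.6% (16.0 to 36.0%). Just outside the limit of 5 clusters, the 252 windows with 4 clusters and both strands had a lone minority cluster in 71.0% and a single switch in 78.6%. Just inside, the 143 windows with 5 clusters had a lone minority cluster in 52.4% and a single switch in 69.2%. The lowest possible number of clusters also limits how many switches a window can show.

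The 2-block windows showed how neighbouring stretches of opposite strand were laid out. Their 186 blocks held 2 to 10 clusters, with a median of 3, and spanned a median of 16002.5 bases (interval 14437 to 18438). The gap at the switch had a median of 21562 bases (19241 to 23957), against 6668 bases (5578 to 8035) between same-strand neighbours in the same windows. The switch was the widest gap of the window in 44 of the 93 windows, 47.3%. In the other 49 windows a wider gap lay inside a block. Each window has a single switch gap beside several same-strand gaps, 93 against 359 over all 2-block windows.

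The plus block lay first in 55 of the 93 windows, so that the strands pointed toward each other, and the minus block lay first in 38. The share with plus first was 59.1%, with an exact 95% interval of 48.5 to 69.2% that includes 50%. Over all 178 windows with a single switch, lone clusters at an end included, plus came first in 106, 59.6%, with an exact interval of 52.0 to 66.8% that excludes 50% for counting error alone. With the grid shifted by 50000 bases, plus lay first in 49.5% of 99 2-block windows and in 52.4% (Wilson interval 45.3 to 59.5%) of 185 windows with a single switch, the last a setting added after the data were seen. The gap at the switch had a median of 22450 bases (18874 to 25599) where strands pointed toward each other and 19965.5 bases (16520 to 24712) where they pointed apart. These intervals overlapped. Gaps under 10000 bases occurred in 8 windows of each kind.

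**Figure D2:**
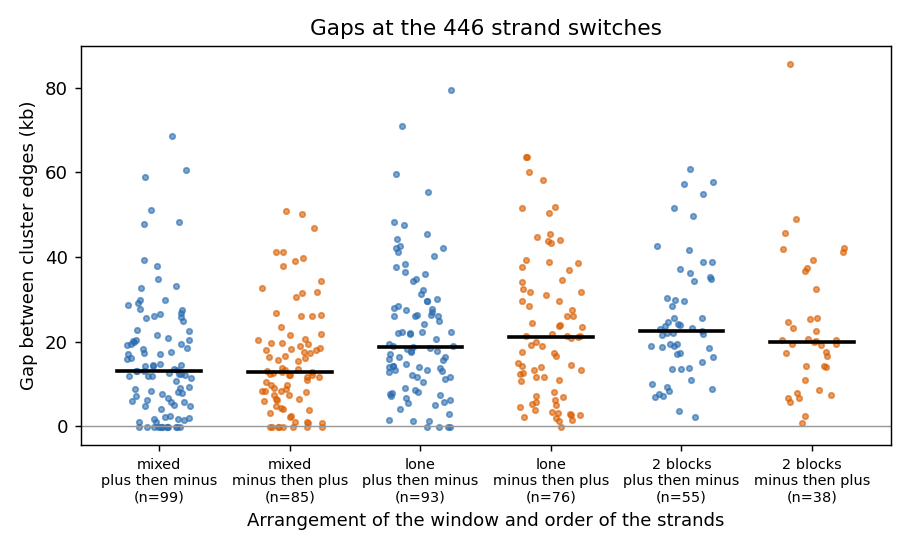
Each point is 1 of the 446 strand switches, placed by the gap in kb between the edges of the 2 clusters, and negative where the clusters overlap. Columns give the arrangement of the window and the order of the strands, and black lines are medians. The median was 12984 bases over the switches of mixed windows and 21562 bases over those of 2-block windows.

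The largest 2-block window was on chromosome 1 from 144800001 to 144900000, with 13 clusters, all non-Alu. Its 10 plus clusters lay between 144811838 and 144828810 and its 3 minus clusters between 144851817 and 144879463, in the order ++++++++++---. The 23006 bases between the blocks were fewer than the 26372 bases of the widest gap inside a block. On chromosome 16, the window from 2100001 divided by class as well as by strand. Its 6 plus clusters, from 2100654 to 2130648, were all Alu, and its 3 minus clusters, from 2167784 to 2184204, were all non-Alu, with 37135 bases between them. On chromosome 10, the window from 75500001 had 3 plus clusters, of which 2 were non-Alu, from 75519758 to 75559227, and 5 minus clusters, all Alu, from 75576328 to 75595722.

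Other large 2-block windows held Alu clusters alone. On chromosome 19, from 38900001, 2 minus clusters between 38905075 and 38914916 were followed by 7 plus clusters between 38947379 and 38994290, the order in which strands point apart. On chromosome 10, from 94000001, the same order was seen with 2 minus clusters up to 94026672 and 6 plus clusters from 94068425, across a gap of 41752 bases. The strands pointed toward each other on chromosome 14, where 6 plus clusters ended at 31564263 and 2 minus clusters began at 31585826. They did so too on chromosome 17, where 6 plus clusters between 34141188 and 34158978 were followed by 2 minus clusters from 34184578 to 34199095. The closest switch in a 2-block window was on chromosome 1, where 820 bases separated a minus non-Alu cluster ending at 149822151 from a plus non-Alu cluster starting at 149822972. The widest of all 446 switches, 85560 bases, was also in a 2-block window of chromosome 1, from 182907450 to 182993011. These last windows, and the windows named below for their class, were chosen after their values were seen.

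In windows with a lone minority cluster, that cluster more often stood at an end of the row than among the others. It was at an end in 85 of 127 windows, 66.9% (58.4 to 74.5%), and inside the row in 42. Ends are a large part of the places in rows this short, and the share from position alone was not computed. The next cluster outside the window could be read for 84 of the lone clusters at an end. It had the strand of the lone cluster in 57, 67.9% (57.3 to 76.9%). Its median distance was then 45386 bases (30830 to 56550). At the ends of lone windows held by the majority strand, the next cluster outside shared the strand in 62.1% (54.6 to 69.1%) of 169 cases, and the intervals overlapped. Over all 570 window ends of the 286 windows the share was 63.0% (58.9 to 66.9%). It was 83.3% of the 96 ends with the next cluster under 20000 bases away and 58.9% of the 474 ends with a larger gap. These outside clusters were not used to choose the windows.

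The lone clusters themselves were much like their neighbours. Of 127 lone clusters, 102 were Alu, 80.3% (72.6 to 86.3%), against 78.2% (74.7 to 81.3%) of the 587 other clusters in these windows. Their median length was 185 bases (169 to 192), against 188 bases (182 to 193). The largest lone window, on chromosome 17 from 48100001, had 10 plus clusters, 9 of them non-Alu, between 48133589 and 48177155. Its lone minus cluster, an Alu cluster of 183 bases, ended at 48132037, 1551 bases before the first plus cluster. On chromosome X, from 41500001, a plus Alu cluster from 41552582 to 41552793 stood inside 9 minus clusters, 5 of them non-Alu. On chromosome 19, from 46000001, a non-Alu plus cluster of 108 bases stood among 7 minus clusters, 6 of them Alu. In the chromosome 12 window from 122600001, all 8 clusters were Alu, and the lone minus cluster, from 122658000 to 122658204, overlapped a plus cluster by 197 bases.

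In 76 windows with 2 switches, clusters of 1 strand were enclosed between clusters of the other. The enclosed stretch was a lone cluster in 42 windows and 2 to 7 clusters in the other 34. The flanking clusters of the outer strand were a median of 45860 bases apart (39179 to 54268), and under 20000 bases apart in 13 windows. Enclosed clusters were Alu in 108 of 130 cases, 83.1% (75.7 to 88.6%), and lay on the plus strand in 40 of the 76 windows. In 8 windows an enclosed cluster overlapped a cluster of the outer strand. The largest enclosed block was on chromosome 17 from 2200001, in the order -+++++++-. Its 7 plus clusters, 6 of them Alu, ran from 2214101 to 2280716, and the minus clusters on either side were Alu clusters ending at 2205867 and starting at 2294288. Whether outer clusters belong to the same transcript cannot be read from the list.

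The mixed windows held the interleaved strands. Of 66 mixed windows, 34 had 2 switches and 32 had 3 or more, and 5 had as many switches as their strand counts allow. Gaps at a switch were shorter in these windows, with a median of 12984 bases (11873 to 15410) over 184 switches, than the 21562 bases of 2-block windows. A difference in this direction is favoured by the definition, since more switches must share the same 100000 bases. Same-strand neighbours in mixed windows were a median of 7734.5 bases apart (5447 to 9944).

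The window with the most switches lay on chromosome 4 from 39500001 to 39600000. Its 9 clusters, 8 of them Alu, had the order -+-++-++- and 6 of the 8 switches that 5 plus and 4 minus clusters allow. Its 5 plus clusters lay between 39535894 and 39589013, and its 4 minus clusters between 39502854 and 39597856, so that the minus clusters spanned the whole plus stretch. The closest switch there left 934 bases between a plus Alu cluster ending at 39574920 and a minus Alu cluster starting at 39575855. The widest switch in the same window was 32773 bases. The switches of this window thus came at spacings of under 1 kb to over 30 kb.

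Some of the other named mixed windows kept longer runs of a strand. On chromosome 7, the window from 99000001 had the order +++---+- with 4 clusters on each strand, and 7 of its 8 clusters were Alu. On chromosome 10, the window from 3100001 had 7 plus clusters and 2 minus clusters in the order ++++++-+-, with both minus clusters non-Alu. On chromosome 17, the window from 78300001 had the order ++-+--++ with 7 Alu clusters and 1 non-Alu cluster. Other windows alternated almost throughout. On chromosome 19, the window from 49100001 had the order -+-++-+, 5 of the 6 switches its strand counts allow, with switch gaps of 6496 to 18202 bases and no overlap between strands. The window on chromosome 15 from 67700001, in the order -+--+-+ and also with 5 of 6 possible switches, did hold an overlap. There a minus cluster from 67782589 to 67782720 lay within a plus cluster from 67782532 to 67782757, and all 7 clusters were Alu.

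A mixed window on chromosome 16, from 30200001, carried the longest clusters of the whole set. Its minus strand held non-Alu clusters of 1122 bases, from 30234835 to 30235956, and of 944 bases, from 30235962 to 30236905. Against these, its 2 plus clusters were Alu clusters of 190 and 129 bases that lay at 30207439 and 30209926, between the first minus cluster and the rest. The next longest member, of 905 bases, was a plus non-Alu cluster on chromosome 20, from 62510946 to 62511850, in a lone window.

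**Figure D3:**
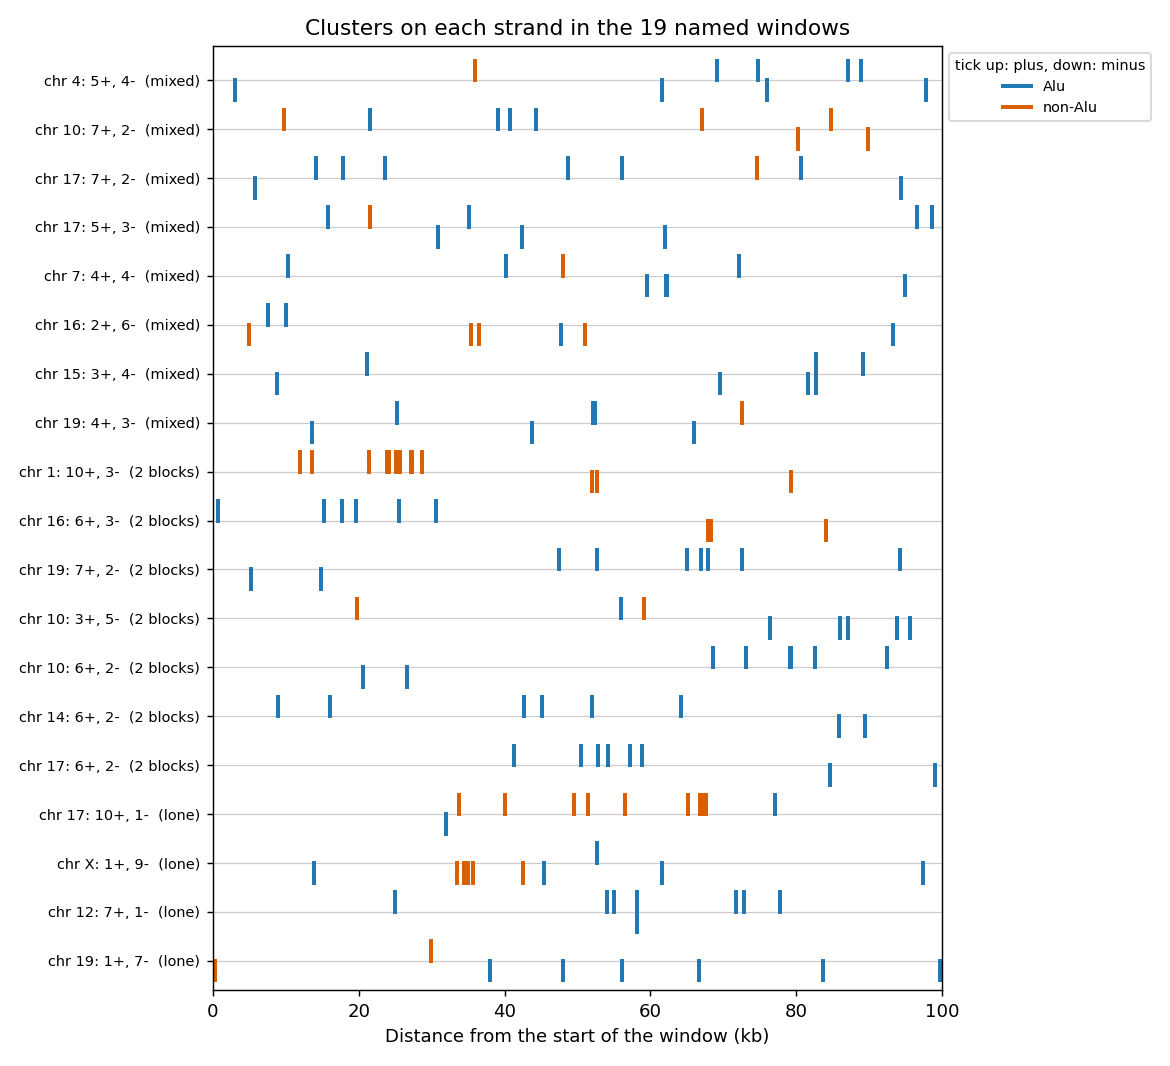
Each row is 1 of the 19 named windows, labelled by chromosome, clusters per strand and arrangement, with the distance in kb from the start of the window along the axis. Ticks up are plus clusters and ticks down minus clusters, blue for Alu and orange for non-Alu. In the 2-block rows the ticks change side a single time, and in the top row, chromosome 4, they change side 6 times.

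Opposite strands met at the same place in 26 pairs of overlapping clusters, 44.1% of the 59 such pairs in the list. By the rule, any window with 5 or more clusters that holds such a pair is a both-strand window. The share is therefore shaped by the choice of windows and carries no test. All 52 clusters of the 26 pairs were Alu. The overlap had a median of 165.5 bases (141 to 172) and covered a median of 95.2% of the shorter cluster, from 49.8 to 100%. Of the 26 pairs, 21 lay in mixed windows, 5 in lone windows and 0 in 2-block windows, where a pair could fall at the single switch alone. They were found in 22 windows, of which 17 were mixed, so that 49 of the 66 mixed windows, 74.2% (62.6 to 83.3%), were mixed without any overlapping pair. The order of an overlapping pair was set by its midpoints, which can be a few bases apart.

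In the overlapping pairs the list gives clusters of both strands over the same bases. How reads matching several Alu copies were placed is not given, and its part in these pairs was not tested. The longest overlap, of 217 bases, was on chromosome 1 between a plus cluster from 186369194 to 186369433 and a minus cluster from 186369217 to 186369448. On chromosome 10, a plus cluster from 68834102 to 68834311 lay wholly within a minus cluster from 68834098 to 68834333. On chromosome 12, a plus cluster from 12040522 to 12040740 shared 206 bases with a minus cluster from 12040487 to 12040727. The next longest overlaps were the 197 bases on chromosome 12 at 122658008, described above, and 186 bases on chromosome 14 between a plus cluster from 52036510 to 52036757 and a minus cluster from 52036572 to 52036859.

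In 4 windows, all of them mixed and all Alu, 2 overlapping pairs occurred together. On chromosome 10 from 97500001, the pairs were 3825 bases apart, and the 6 clusters had the order +--+-+. On chromosome 10 from 68800001 the pairs were 6026 bases apart, and on chromosome 2 from 174000001 they were 6640 bases apart. On chromosome 3 from 99500001 the distance was 25785 bases. In the chromosome 2 window and the chromosome 10 window from 68800001, both minus clusters were members of a pair. The minus strand of these windows was seen at paired places alone. Over the 26 pairs, the other clusters of the window lay on both strands in 21 cases, all in mixed windows. They lay on 1 strand in 5, all in lone windows. The definitions of these arrangements fix this split, so it adds nothing to them.

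**Figure D4:**
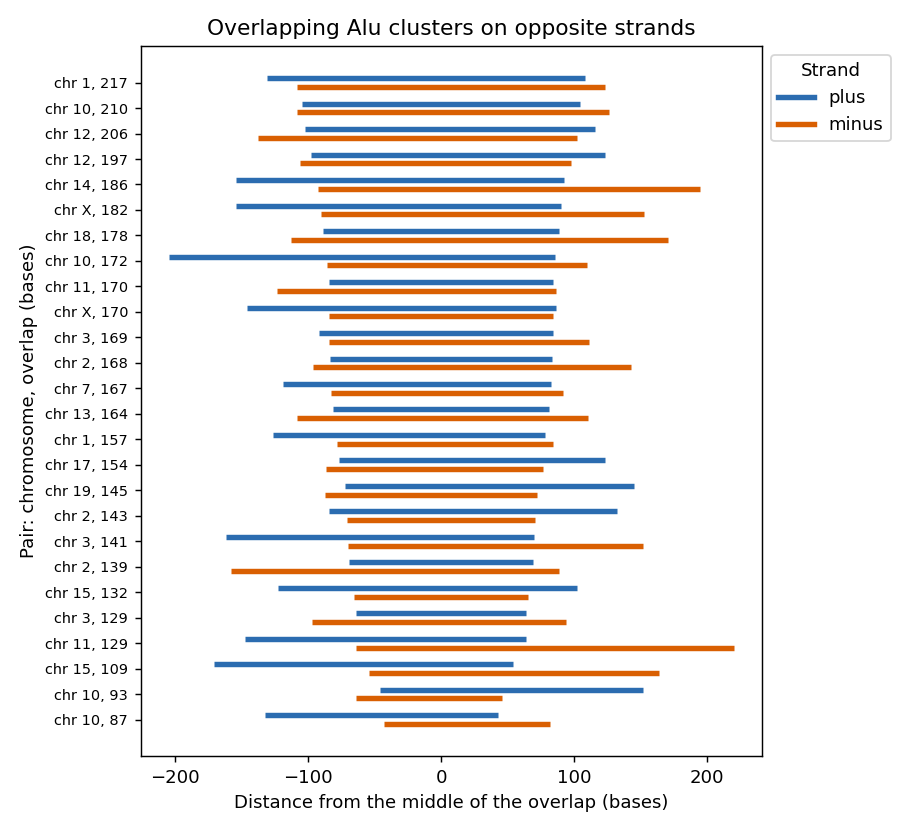
Each row is 1 of the 26 overlapping pairs, labelled by chromosome and overlap in bases and drawn from the middle of the overlap, with the plus cluster in blue above the minus cluster in orange. Overlaps run from 217 bases at the top to 87 bases at the bottom. In several rows 1 cluster lies wholly within the other.

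Apart from overlaps, opposite strands seldom came close. A gap of 0 to 1000 bases was found at 6 of the 446 switches, 1.35% (0.62 to 2.90%). Gaps of 1000 to 10000 bases made up 95 switches, gaps of 10000 to 30000 bases 225 switches, or 50.4%, and wider gaps 94 switches. By midpoint distance, 28 of 133 pairs under 1000 bases apart were on opposite strands, 21.1% (15.0 to 28.7%), and 26 of these 28 were the overlapping pairs. Without them the share was 1.87% (0.51 to 6.56%) of 107 pairs. Leaving out overlaps lowers this value by construction, since the list has no overlapping clusters on the same strand. The share was 12.5% (8.61 to 17.8%) at 2000 to 5000 bases, 40.6% (35.4 to 46.0%) at 10000 to 20000 bases and 62.2% (46.1 to 75.9%) at 50000 to 100000 bases. Over all switches the median gap was 17528 bases (15812 to 19034), against 6715 bases (5987 to 7776) between same-strand neighbours.

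**Figure D5:**
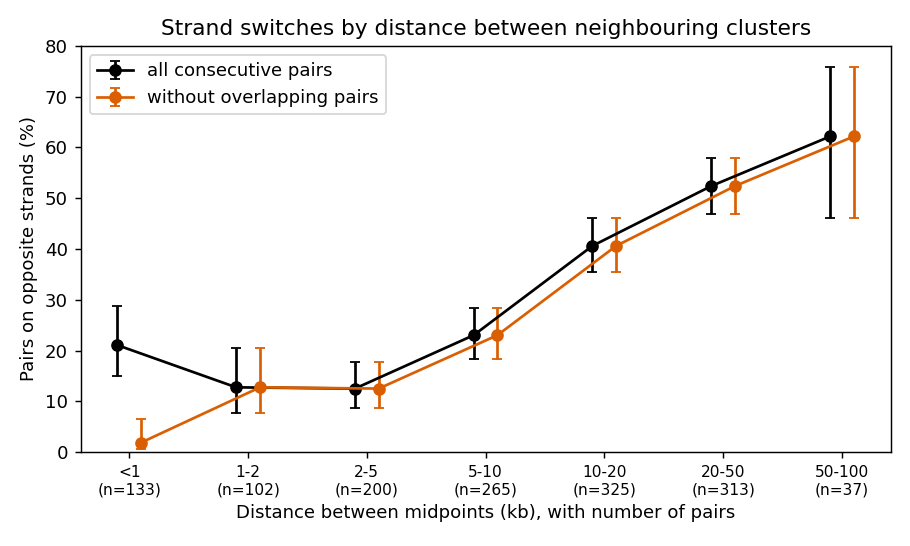
Points give the percentage of consecutive cluster pairs in the 286 windows that lie on opposite strands, by distance between midpoints in kb, with Wilson 95% intervals. The black line holds all pairs and the orange line leaves out overlapping pairs, and the lines part below 1 kb alone, at 21.1% and 1.87%.

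The 5 mixed-window switches and the 1 2-block switch with a gap under 1000 bases included both classes. The closest, of 685 bases on chromosome 19, lay between a minus non-Alu cluster ending at 47991212 and a plus Alu cluster starting at 47991898. On chromosome 15, gaps of 834, 906 and 911 bases were found. The gap of 911 bases, between a minus cluster ending at 83142282 and a plus cluster starting at 83143194, joined 2 non-Alu clusters.

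The members were mostly Alu, as was the list. Of 1661 members, 1316 were Alu, 79.2% (77.2 to 81.1%), against 73.2% (71.5 to 74.9%) of 2537 clusters in single-strand windows with 5 or more clusters and 86.9% (86.5 to 87.4%) of 19584 clusters in sparser windows. The value lay between those of the other sets and its interval overlapped neither, for counting error alone. The Alu share was 81.6% (77.5 to 85.1%) in mixed, 78.3% (74.7 to 81.6%) in 2-block and 78.6% (75.4 to 81.4%) in lone windows, with overlapping intervals. It was 97.8% (93.7 to 99.2%) of the 136 clusters in windows with an overlapping pair, whose paired clusters were all Alu. The minority strand was 81.6% Alu (77.6 to 85.1%, 414 clusters), against 78.5% (75.9 to 80.8%, 1101 clusters) for the majority strand, and these intervals overlapped. Plus members were 79.1% and minus members 79.4% Alu.

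The share of dense windows with both strands varied with their make-up by class, in sets not matched for the number of clusters. Both strands were present in 128 of 245 windows with some non-Alu clusters but at least as many Alu, 52.2% (46.0 to 58.4%). In windows with Alu clusters alone the share was 35.5% (30.7 to 40.7%) of 349. In windows with both classes but more non-Alu than Alu clusters it was 28 of 76, 36.8% (26.9 to 48.1%), and in windows with non-Alu clusters alone 6 of 33, 18.2% (8.61 to 34.4%). Within the 286 windows, the classes were spread over the strands to different extents, without a test. Of 86 windows with 2 or more non-Alu clusters, 38 had them on both strands, 44.2% (34.2 to 54.7%), against 235 of 270 windows with 2 or more Alu clusters (82.5 to 90.5%). Windows with 2 or more Alu clusters held more of that class, which by itself gives it more chances to appear on both strands.

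Strand switches were also counted by the classes of the clusters on either side. Among 293 pairs with unlike classes, 126 were on opposite strands, 43.0% (37.5 to 48.7%). The share was 31.1% (28.2 to 34.1%) of 936 Alu pairs and 19.9% (14.2 to 27.1%) of 146 non-Alu pairs. The median midpoint distance also differed, at 13737.5 bases for unlike pairs, 9955.5 for Alu pairs and 4002.5 for non-Alu pairs. Under 10000 bases, the shares on opposite strands were 28.3% (21.0 to 37.0%) for unlike pairs, 17.8% (14.6 to 21.5%) for Alu pairs and 8.26% (4.40 to 15.0%) for non-Alu pairs. At 10000 bases or more they were 53.2% (45.8 to 60.5%), 44.5% (40.1 to 49.1%) and 54.1% (38.4 to 69.0%), with overlapping intervals. Under 10000 bases, the 84 switches of Alu pairs included all 26 overlapping pairs, which raises the Alu share there.

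Strands that differed wholly in class were few. Of 156 windows with both classes, 28 had all Alu clusters on 1 strand and all non-Alu clusters on the other, 17.9% (12.7 to 24.7%). Among the 93 2-block windows, 7 had a pure Alu block beside a pure non-Alu block, 38 had 2 Alu blocks and 3 had 2 non-Alu blocks. Beside the chromosome 16 window above, the 7 included chromosome 22 from 50800001, with the order +++++-- and 5 Alu and 2 non-Alu clusters, and chromosome 4 from 5800001, with the order ++++--- and 3 Alu and 4 non-Alu clusters. The 3 windows with 2 non-Alu blocks were the largest one on chromosome 1, another on chromosome 1 from 149800001 in the order ---+++, and chromosome 20 from 37000001 in the order ---++.

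Median cluster lengths were close, while the shares of long and of short clusters differed more. Members had a median length of 186 bases (183 to 190), against 190 bases (188 to 193) in single-strand dense windows and 193 bases (192 to 194) in sparser windows. Clusters over 300 bases made up 2.65% (1.98 to 3.54%) of members, 4.41% (3.68 to 5.29%) of clusters in single-strand dense windows and 4.17% (3.90 to 4.46%) in sparser windows. Clusters under 100 bases made up 8.01% (6.80 to 9.41%) of members. The share was 6.74% (5.83 to 7.78%) in single-strand dense windows and 5.73% (5.41 to 6.06%) in sparser windows. For counting error alone, the interval of members overlapped neither other set over 300 bases, and under 100 bases that of single-strand dense windows only. Alu members had a median of 185 bases and non-Alu members of 190 bases. The minority strand had a median of 183.5 bases (175 to 188), against 188 bases (184 to 192) for the majority strand. Clusters of overlapping pairs had medians of 211 bases (178 to 226) on the plus strand and 208 bases (170 to 236) on the minus strand, and both intervals included the median of 186 bases of all members.

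By the positions in the list, both-strand windows occurred on all 24 chromosomes. Chromosome 1 had the most, 32 of its 81 dense windows, followed by chromosome 19 with 28 of 59 and chromosome 17 with 23 of 63. The share of dense windows with both strands was 55.6% on chromosome 11 (exact interval 35.3 to 74.5%, 27 windows) and 23.5% on chromosome 5 (10.7 to 41.2%, 34 windows). On chromosome 19, the members made up 15.9% of all clusters, and 13.1% on chromosome 22, against 6.98% over the list. Mixed windows were most numerous on chromosome 19, with 8, and chromosome 17, with 7. Windows in 2 blocks were also most numerous on chromosome 19, with 11, followed by chromosomes 1 and 12 with 9 each. On chromosome Y, where 3 windows were dense, the 1 both-strand window, from 1400001, held 5 clusters in 2 blocks. How reads matching several places were put on this chromosome is not given, so their origin there was not tested.

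Most both-strand windows stood apart from each other. Of the 286, 41 adjoined another both-strand window, 14.3% (10.7 to 18.9%), in 16 stretches of 2 windows and 3 stretches of 3. On chromosome 19, the stretch from 11400001 to 11700000 held 17 clusters whose orders in successive windows were +--++-, --+-- and ---+--. On chromosome 2, the stretch from 219300001 to 219600000 also held 17 clusters, in the orders +-----, -+++++ and --+++. On chromosome 1, from 6400001 to 6700000, 16 clusters had the orders -----+, ++--- and +++-+. On chromosomes 1 and 2, the strand was the same on both sides of the first join of these stretches and changed at the last join.

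The grid of windows sets which clusters are counted. When it was shifted by 50000 bases, 291 windows held both strands, and 655 of the 1661 members, 39.4% (37.1 to 41.8%), were members again. The shares of the 3 arrangements nevertheless stayed within their intervals, at 43.0% lone, 34.0% in 2 blocks and 23.0% mixed.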

How the data were processed

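The series holds 2 ADAR1 CLIP-seq libraries from U87MG cells. Per the labels' protocols, RNA was amplified for 23 PCR cycles and products of 75 to 250 bp were selected. Per the submitters' processing notes, cutadapt 1.1, Novoalign 2.08.22 and hg19 were used. The cluster caller, its thresholds, the joining of the libraries, the treatment of reads with several matches and the rule for the Alu class are not given in the sources at hand; each can change which clusters are listed and where they end. The authors' deposited list gives position, class and strand, with no signal, so depth is unknown.

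Starts were read as counted from 0 and are printed counting from 1. Clusters were ordered by midpoint within windows and strand switches counted with pandas 2.3.3, scipy 1.17.1 and numpy 2.4.6 under Python 3.11.15. Shares have Wilson 95% intervals unless called exact, and medians have order-statistic intervals. The code recovered planted arrangements in simulated data, with 1 fixed pattern for each kind of window. Lone clusters inside a row, enclosed blocks and overlapping pairs were not planted. Windows and lists were chosen with earlier results of these data known. Named windows were the 10 with the most clusters, which ties extended to 17, the 3 of each arrangement with the most minority clusters and the 3 with the most switches, 19 in all. The annotation at hand, on GRCh38, was not used.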

Additional observations from a re-analysis of the deposited data

How the results depend on the processing

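Of 132 alternative values over 12 results, 88 stayed within 1.5 times the reported count or inside its 95% interval and 44 did not. Window size and the count minimum define the windows, and most of the 44 came with a change in these settings. The cause was not tested. The number of both-strand windows was 48 with windows of 50000 bases, 848 with 200000 bases, 538 with at least 4 clusters, 143 with at least 6, 30 with clusters at or above the median length and 163 with Alu clusters alone. In the same order, member clusters numbered 264, 5761, 2669, 946, 160 and 925. The first 5 of these settings gave lone windows in 37.5%, 37.5%, 56.9%, 36.4% and 60%. Mixed windows made up 28.9% with 200000 bases, 16.0% with at least 4 clusters and 30.8% with at least 6, and 2-block windows 27.1% with at least 4 clusters and 20% of the long-cluster windows. The median gap at a switch was 7730 bases with windows of 50000 bases, 29523.5 with 200000, 19382 with the shifted grid, 19376.5 with at least 4 clusters, 14123 with at least 6 and 13920 among long clusters. Switches made up 37.0% of pairs with windows of 50000 bases, 27.8% with 200000, 35.7% with at least 4 clusters and 37.7% among long clusters. Overlapping pairs numbered 11 with windows of 50000 bases, 41 with 200000, 42 with at least 4 clusters and 7 among long clusters. The Alu share of members was 83.0% with windows of 50000 bases, 82.1% with 200000 and 71.9% among long clusters, and on the minority strand 88.3% with 50000 bases and 89.5% among long clusters. Median length was 196.5 bases with windows of 50000 bases and 219 among long clusters, the latter by construction. The plus block lay first in 47.1% of 17 windows of 50000 bases, below 50%, against 59.1% reported, and in 49.5% on the shifted grid. Assignment by start, merging within 50 bases, leaving out overlapping clusters and leaving out chromosomes X and Y moved none of the results past these limits. No paired analysis was possible because AB1 and AB2 have 1 library each, joined in the list without a column of their own, and so no library could be dropped either. The alternative that needed gene annotation was not run. With no tag counts, neither weak clusters nor empty places can be judged.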
